A study of Mus musculus with 16 samples.

Results

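The 9 genes followed here encode steps of leukotriene synthesis and sensing, and were measured in group 2 innate lymphoid cells (ILC2), tissue-resident lymphocytes, from mouse duodenum. They were found by symbol, and all 9 were among the 53465 genes of the count table: Pla2g4a, Alox5, Alox5ap, Lta4h and Ltc4s for synthesis, and Ltb4r1, Ltb4r2, Cysltr1 and Cysltr2 for the receptors. The study addressed how leukotrienes, IL-25 and IL-33 bear on the state of these cells in untreated C57BL/6 mice kept free of specific pathogens, aged 6 to 10 weeks. Cells were flow sorted, by a gate not given in the sources used here, from the first 5 cm of the small intestine. There were 4 libraries of each of 4 genotypes. WT mice carried Il13 smart13/smart13, a reporter allele at Il13 that all groups shared. Alox5 KO mice were Alox5 (-/-); Il13 smart13/smart13. Il25 KO mice, labelled as lacking the epithelial cytokine IL-25, were Il25 (-/-); Arg1Yarg/Yarg; Il13 smart13/smart13. St2 KO mice, labelled as lacking the IL-33 receptor encoded by Il1rl1, were St2 (-/-); Arg1Yarg/Yarg; Il13 smart13/smart13. The Arg1 reporter was thus in both of these groups and not in WT or Alox5 KO, so it cannot be told apart from the Il25 and St2 alleles in comparisons with WT.

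Leukotrienes are lipid mediators made from arachidonate. Cytosolic phospholipase A2 alpha, from Pla2g4a, frees arachidonate from membranes, and 5-lipoxygenase, from Alox5, converts it to leukotriene A4 with the help of the membrane protein FLAP, from Alox5ap. Leukotriene A4 hydrolase, from Lta4h, then gives leukotriene B4, while leukotriene C4 synthase, from Ltc4s, conjugates glutathione to give the cysteinyl leukotrienes. Ltb4r1 and Ltb4r2 encode the high- and low-affinity leukotriene B4 receptors, and Cysltr1 and Cysltr2 encode the receptors for cysteinyl leukotrienes, which are known to activate ILC2. Cells that lack 5-lipoxygenase can make leukotrienes from leukotriene A4 passed to them by other cells. Transcript counts measure neither enzyme activity nor leukotriene output.

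The promoters of Alox5 and Pla2g4a are shown because these were the members whose counts differed most between Alox5 KO and WT, in opposite directions. Each run is the 250 bases before the RefSeq transcript start (GRCm38.p6), 5′ to 3′ on the strand of the gene, at chr6:116461179-116461428 (minus) for Alox5 and chr1:149961291-149961540 (minus) for Pla2g4a. Capitals mark matches on either strand to the motifs searched. The Sp1 box was searched as GGGCGG. The TATA box was searched as TATAAA and the GATA site as GATAA; matches could overlap each other.
Alox5: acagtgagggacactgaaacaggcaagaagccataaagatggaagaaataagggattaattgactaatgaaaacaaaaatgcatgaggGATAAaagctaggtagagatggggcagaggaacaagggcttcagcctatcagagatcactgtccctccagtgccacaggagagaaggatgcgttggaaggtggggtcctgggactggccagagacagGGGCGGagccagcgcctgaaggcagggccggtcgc
Pla2g4a: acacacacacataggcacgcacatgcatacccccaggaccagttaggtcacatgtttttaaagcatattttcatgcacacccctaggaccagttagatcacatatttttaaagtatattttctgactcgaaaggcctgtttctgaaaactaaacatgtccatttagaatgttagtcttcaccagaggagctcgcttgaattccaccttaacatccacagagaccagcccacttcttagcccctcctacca
The Alox5 window held 1 GGGCGG and 1 GATAA, and the Pla2g4a window shown held no match. A second RefSeq start of Pla2g4a had its window at chr1:149922440-149922689 (minus), not shown, with 1 TATAAA and 2 GATAA. Of 32851 windows of the same length before RefSeq starts, 32.7% held GGGCGG, 12.4% TATAAA and 22.6% GATAA on either strand. A match is a description of letters, and no binding was measured here. RefSeq windows were matched for 6 of the 9 genes, and those of Alox5ap, Cysltr1 and Ltb4r2 were not.

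Library totals ranged from 2086864 to 3216937 counts with a median of 2625205.5, and 15490 to 16529 genes were detected per library. All 15 markers of ILC2 were detected, with summed levels of 6544 to 8594 CPM, the counts of a library scaled to a common total. In all, 3 letter pairs in the sample codes, of unstated meaning, split the libraries: TS marked the first pair of libraries of each genotype, TT the second pair in WT and in Alox5 KO, and TY the second pair in both other knockouts. TY libraries had 982 to 1682 counts of Xist and at most 2 of Ddx3y, and the other 12 at most 7 and at least 709, so sex and letter pair cannot be told apart. Plasma and B cell transcripts were uneven: they summed to 655 to 858 CPM in WT but to 1.99 CPM in Alox5 KO 1, 65.69 in Alox5 KO 2 and 33.05 in St2 KO 1. Since the labels do not tie each library to its own mouse, p-values reflect only how much libraries vary. In bulk libraries, fewer cells of a type and less RNA per cell cannot be told apart.

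WT ILC2 held abundant receptor transcripts and abundant Lta4h, less Alox5, little Pla2g4a, and no count of Alox5ap or Ltc4s. Levels between genes were compared as CPM per kilobase of merged exons (CPM per kb), as mean ± SD over 4 WT libraries. Ltb4r1 stood at 113.1 ± 18.3 CPM per kb, Cysltr1 at 99.4 ± 7.35, Cysltr2 at 76.5 ± 9.07 and Lta4h at 55.9 ± 1.29. In WT they were higher than 98.6%, 98.2%, 97.2% and 95.4% of the genes with a count in any of the 16 libraries. Alox5 stood at 23.4 ± 7.995 CPM per kb, above 87.5% of the same genes. Pla2g4a and Ltb4r2 stood at 0.787 ± 0.716 and 0.458 ± 0.550 CPM per kb, above 47.9% and 42.0% of them. These shares include genes with no count in WT, so each rank among genes detected in WT was lower. Ltb4r1 and Cysltr1 overlapped between libraries, as did Pla2g4a and Ltb4r2, so neither pair was ordered by its spread. The order of the 4 highest genes also depended on the length used: per kilobase of the longest transcript, Cysltr2 reached 124.8 and Lta4h 105.7, against 113.1 for Ltb4r1.

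**Figure D1:**
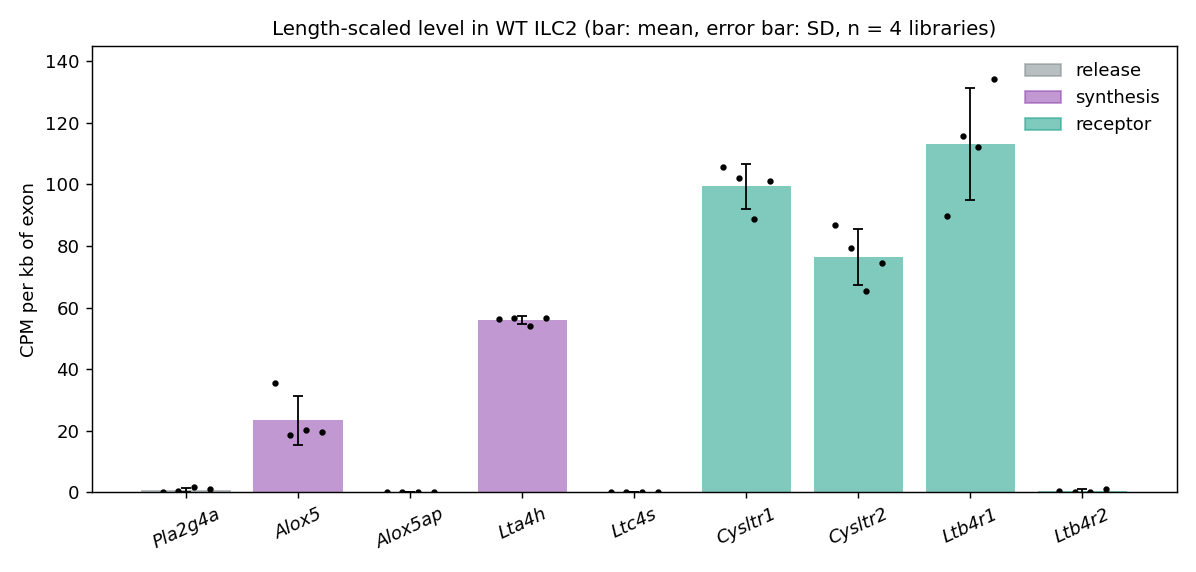
Levels of the 9 genes in WT ILC2, as CPM per kilobase of merged exons. Bars are means and error bars SD over 4 WT libraries. The receptors Ltb4r1, Cysltr1 and Cysltr2 and the hydrolase Lta4h lie highest, and Alox5ap and Ltc4s are at 0.

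Alox5ap (chr5:149264767-149288153, plus strand) had 7 counts in all 16 libraries together. They fell in St2 KO 3, with 3 counts, and St2 KO 4, with 4, and the other 14 libraries had none. Ltc4s (chr11:50236461-50238616, minus strand) also had 7 counts in all. They fell in Il25 KO 1, 3 and 4, with 3, 1 and 2 counts, and in St2 KO 1, with 1. No library of WT or Alox5 KO had a count of either gene.

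With 0 counts among 10286896 in WT, each gene had an upper limit of 0.292 CPM, taken as 3 counts over the group. Per kilobase, Alox5ap was at least 114.1-fold lower than Alox5, at least 272.1-fold lower than Lta4h and at least 484.2-fold lower than Cysltr1. Ltc4s was at least 81.5-fold lower than Alox5, at least 194.3-fold lower than Lta4h and at least 345.7-fold lower than Cysltr1. These limits cover counting error of Alox5ap and Ltc4s only and take the mean level of the other gene, leaving out its spread. Alox5 was 35.4 CPM per kb in WT 1 and 18.5 to 20.3 in the other WT libraries. Against those lower libraries the folds to Alox5 would be smaller. Exons of antisense genes share 189 of 1420 bases of Alox5ap, with Gm19719, and 268 of 1014 bases of Ltc4s, with Gm26542. The kit does not mark strand, so reads there could be left uncounted for either gene. On the exonic bases outside those overlaps, the limits against Alox5 were 98.9-fold for Alox5ap and 59.9-fold for Ltc4s. A two-sided exact permutation test, which cannot fall below p = 0.0286 with 4 against 4, gave p = 0.4286 for Alox5ap in St2 KO against WT and p = 0.1429 for Ltc4s in Il25 KO against WT. The exact p for Ltc4s was 0.0286 with Il25 KO 2, the Il25 KO library without a count, left out. With that library gone, this is the smallest p the test can give. It follows from the choice of library, since every remaining Il25 KO library had a count and WT had none, so nothing is concluded from it.

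Markers of cells known for leukotriene synthesis were detected in part. Of 12 mast cell and basophil markers, 7 were at 0 in all libraries (Mcpt1, Mcpt2, Mcpt4, Tpsb2, Tpsab1, Ms4a2 and Cma1), and the summed level, 166.82 to 298.72 CPM over all libraries, was mostly Kit and Hdc. Of 9 eosinophil markers, 7 were at 0, and sums ran from 0 to 17.38 CPM, from Prg2 and Ccr3; Ccr3 reached 6.24 CPM of the 10.64 in Il25 KO 2. Of 8 neutrophil markers, 4 were at 0 (S100a8, S100a9, Ly6g and Retnlg), with sums of 0 to 6.13 CPM. Macrophage and dendritic cell markers summed to 17.52 to 125.04 CPM. Of 8 tuft cell markers, 5 were at 0 (Dclk1, Trpm5, Pou2f3, Il25 and Gfi1b), with sums of 7.33 to 73.63 CPM, mostly Avil. T cell markers, counted as a possible further cell type, summed to 478.72 to 747.05 CPM. How many of the Alox5, Pla2g4a or receptor counts came from any of these cells was not tested.

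Other enzymes of the cysteinyl branch were present in part. Mgst2, a microsomal glutathione transferase that can also make leukotriene C4, averaged 17.9 CPM per kb over the 16 libraries, and Mgst3, a related transferase, 6.32. Ggt5, which converts leukotriene C4 to D4, averaged 10.3 CPM per kb, and the exporters Abcc1 and Abcc4 averaged 3.78 and 2.50. The rest of that list was low or absent. Over the 16 libraries, Dpep1, Dpep2 and Dpep3 had 0, 7 and 1 counts, Ggt1, Ggt6 and Ggt7 had 56, 0 and 21, and Mgst1 had 121. Cotl1, a binding partner of 5-lipoxygenase, averaged 136.7 CPM per kb. For arachidonate handling, Lpcat3, which returns arachidonate to membranes, averaged 38.9. Cyp4f13 and Cyp4f16, of a cytochrome P450 family that inactivates leukotriene B4, averaged 29.0 and 19.2. Cyp4f14, Cyp4f15 and Cyp4f18 of that family had 0, 8 and 34 counts over the 16 libraries. Other receptors for leukotrienes and 5-lipoxygenase products were low, the highest being P2ry12 at 0.233 CPM per kb, and Fpr2 and Gpr17 had no count. Abcc1, Abcc4, Fpr2 and Gpr17 fall outside the naming rule and were chosen after their values were seen. The same holds for the Dpep genes, Ggt1, Ggt6, Ggt7, Mgst1, Cyp4f14, Cyp4f15 and Cyp4f18.

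Alox5 (chr6:116410077-116461178, minus strand) checks the genotype labels. WT libraries 1 to 4 had 145.2, 76.0, 83.5 and 80.1 CPM, and Alox5 KO libraries 1 to 4 had 4.78, 11.98, 11.1 and 11.5 CPM, from 12 to 31 counts each. The groups did not overlap, and the KO libraries kept counts over the gene. The position of the deletion was not given, so residual counts may lie outside it. Alox5 fell by 3.28 ± 0.40 (SE) on the log2 scale, with a 95% interval of -4.11 to -2.45 and an adjusted p of 0.0004112 by edgeR's quasi-likelihood test over 11742 genes. It was the 1 member called among 7 tested, where 0.102% of all tested genes were called, at an adjusted p under 0.05. Within TS libraries alone the log2 change was -3.70 (adjusted p = 0.1089) and within TT alone -2.83 (adjusted p = 0.01031). With Alox5 KO 1, Alox5 KO 2 and St2 KO 1 left out, which had few plasma cell transcripts, it was -2.83 with an adjusted p of 0.0795. That fit kept only TT libraries of Alox5 KO, so it cannot separate plasma cell transcripts from letter pair.

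**Figure D2:**
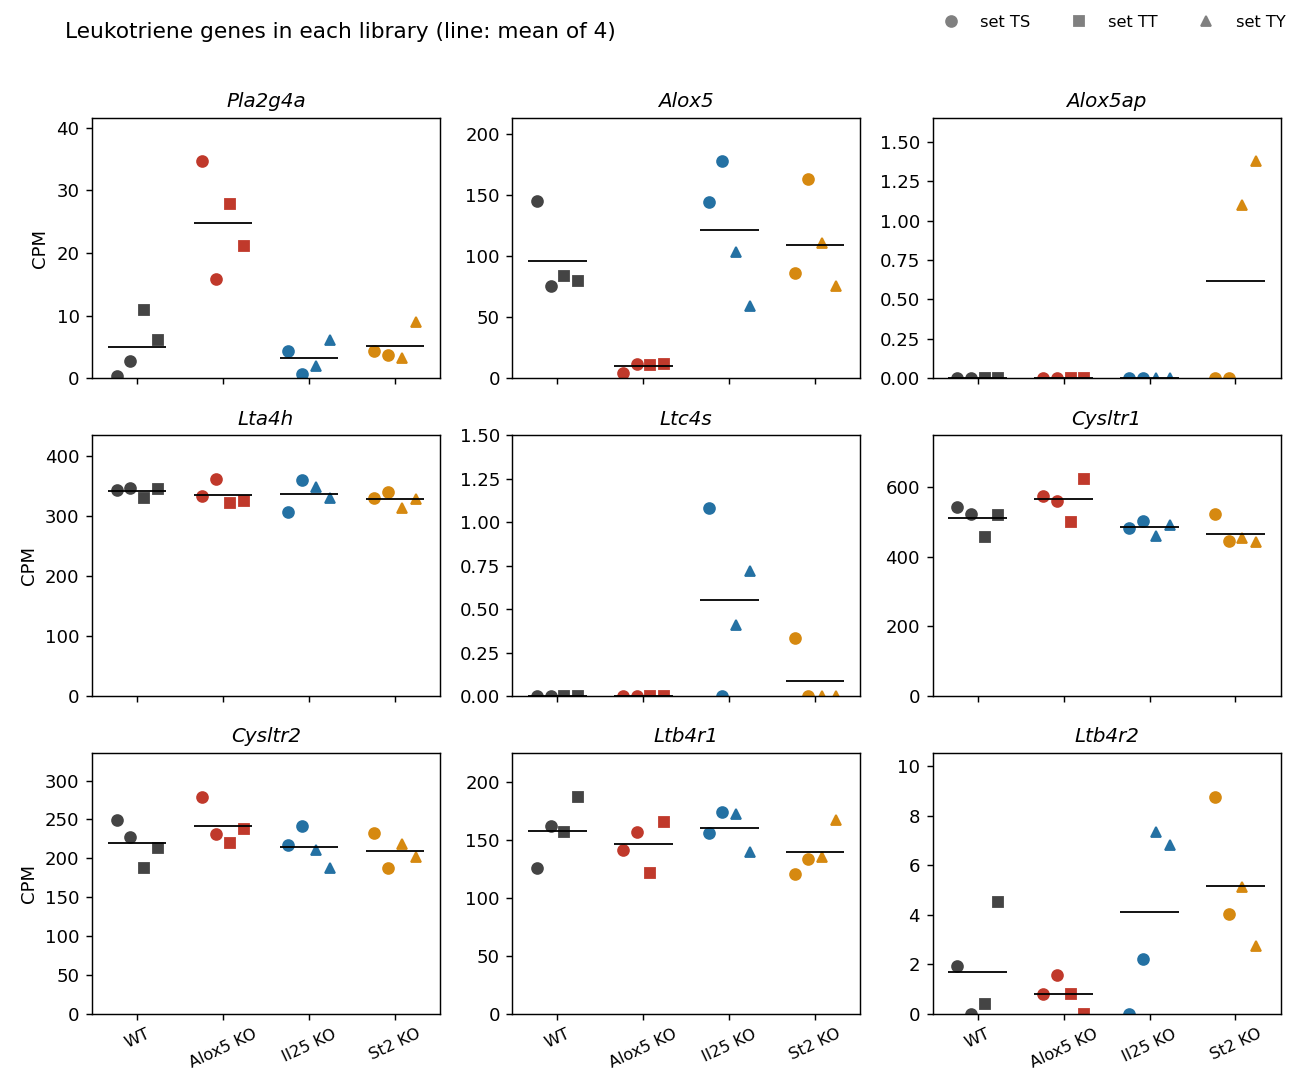
CPM of each of the 9 genes in each of 16 libraries, by genotype, with a panel and y axis per gene. Marker shapes are the letter pairs TS, TT and TY and horizontal lines are group means. Alox5 is low in all Alox5 KO libraries, Pla2g4a is high in them, and Lta4h and the receptors Cysltr1, Cysltr2 and Ltb4r1 lie at similar heights in the 4 genotypes.

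Pla2g4a (chr1:149829618-149961290, minus strand) was higher in Alox5 KO than in WT in every library, but the difference missed the threshold. Alox5 KO libraries 1 to 4 had 34.6, 15.8, 27.8 and 21.1 CPM, from 87, 41, 70 and 44 counts. WT libraries 1 to 4 had 0.386, 2.70, 10.9 and 6.13 CPM, from 1, 7, 29 and 15 counts. Il25 KO libraries had 4.32, 0.734, 2.04 and 6.11 CPM and St2 KO libraries 4.38, 3.73, 3.29 and 8.95. All 4 Alox5 KO libraries lay above the other 12, and the share of all tested genes with that order was not counted. Of all tested genes, 3.84% had groups that did not overlap between Alox5 KO and WT, and 1.76% had all Alox5 KO libraries higher.

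The log2 difference was 2.32 ± 0.46 (SE, 95% interval 1.36 to 3.28), a 4.99-fold higher level with an adjusted p of 0.05684 by edgeR. It ranked the gene 15th of the 11742 tested. A test of any difference over the 4 genotypes, where 1.17% of tested genes were called, called Alox5 (adjusted p = 0.0001118) and Pla2g4a (adjusted p = 0.01174) and no other member, by the same edgeR test. The call of Pla2g4a over the genotypes was lost in 4 of 25 alternatives, with adjusted p-values of 0.08503 in edgeR's legacy mode, 0.1398 in TS libraries alone, 0.1225 without Alox5 KO 1 and 0.512 without Alox5 KO 1, Alox5 KO 2 and St2 KO 1. Contrasts of Alox5 KO with Il25 KO and with St2 KO were added after that test had been seen. Pla2g4a differed from Il25 KO by 3.02 ± 0.67 (adjusted p = 0.05408) and from St2 KO by 2.47 ± 0.61 (adjusted p = 0.1099) on the log2 scale, by edgeR. In those contrasts, 0.392% and 0.485% of tested genes were called. The 3 contrasts share the Alox5 KO libraries.

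The call of Pla2g4a against WT turned on how it was fitted. Of 27 alternatives, 5 called it, with adjusted p-values of 0.009549 to 0.7439 across all 27, and its log2 difference ran from 1.53 to 3.99, above 0 in each. DESeq2 gave 2.65 (adjusted p = 0.009549), and leaving out WT replicate 3, the WT library with the highest Pla2g4a, gave 3.00 (adjusted p = 0.02554). The difference was 3.99 in TS libraries (adjusted p = 0.3776) and 1.53 in TT libraries (adjusted p = 0.7218), by edgeR. A test of the change between these sets, TT minus TS, gave -2.45 on the log2 scale. Its unadjusted p was 0.04981 and its adjusted p was 1, by edgeR. In Alox5 KO the mean was 25.2 CPM in TS and 24.4 in TT, and in WT it was 1.54 in TS and 8.52 in TT. With Alox5 KO 1, Alox5 KO 2 and St2 KO 1 left out, the log2 difference was 1.54 and the adjusted p 0.7439 by edgeR. No TS library of Alox5 KO remained, so this fit in effect repeats the TT contrast. It cannot separate plasma cell transcripts from letter pair. Eosinophil marker sums were 0 to 1.19 CPM in Alox5 KO against 6.13 to 17.38 in WT. These sums were nearly all Prg2, which averaged 0.42 CPM in Alox5 KO and 12.09 in WT and was itself called (log2 difference -4.74). Ccr3 averaged 0 and 0.19 CPM, and the other 7 eosinophil markers had no count. The part of such cells in the Pla2g4a difference was not tested. Epcam, the bulk of the epithelial sum, averaged 10.54 CPM in Alox5 KO against 38.65 in WT, while the means of the other 7 epithelial markers were at most 1.29 CPM in either group, higher in Alox5 KO for 5 of them. Of the 12 genes called in Alox5 KO against WT, 4 lie on chromosome 1 with Pla2g4a, at 14.08 to 18.15 Mb from it. Of all tested genes, 6.24% lie on chromosome 1 and 1.52% within 18.15 Mb of Pla2g4a. That distance was set by the farthest of the 4 called genes, so all 4 lie within it by construction.

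**Figure D3:**
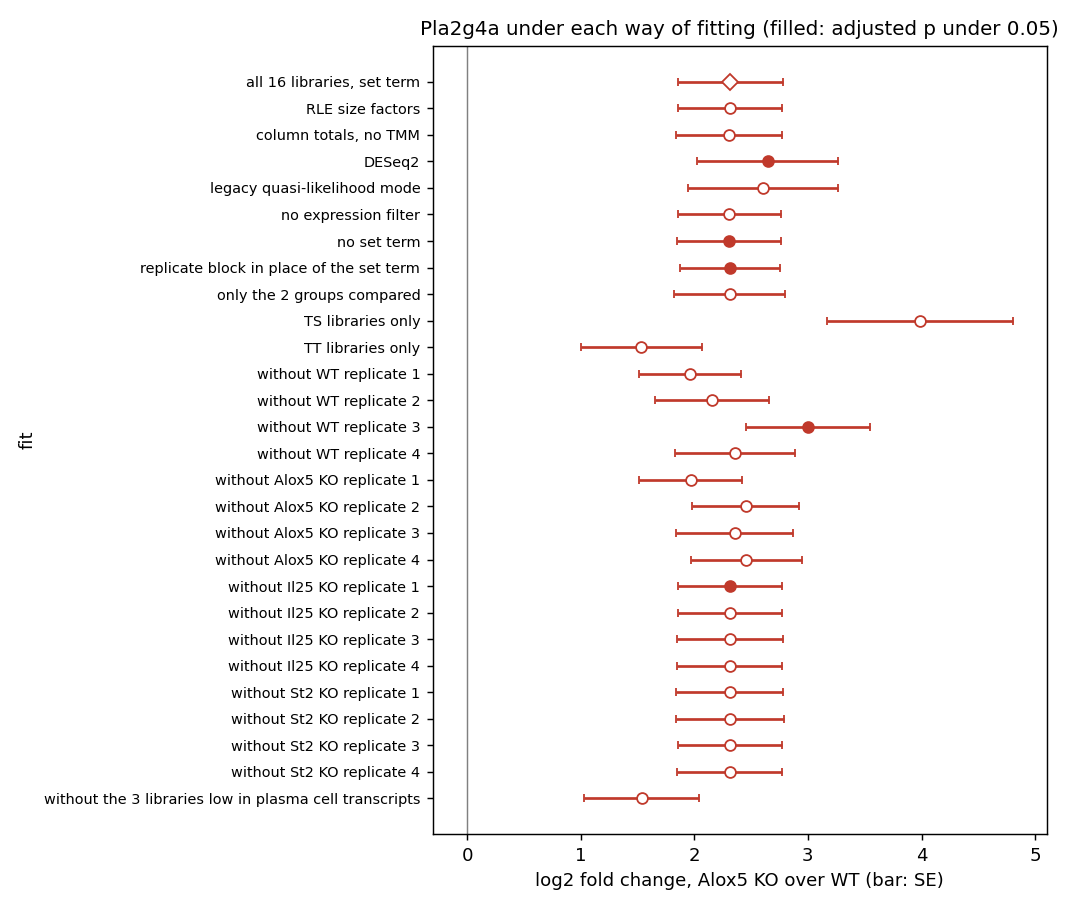
Log2 fold change of Pla2g4a in Alox5 KO over WT, with its SE, under the 28 fits tried. Filled points passed an adjusted p of 0.05. The values lie between 1.53 and 3.99 on the log2 scale, all above 0, and 5 of the 27 alternatives passed.

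The other members tested did not pass in Alox5 KO against WT. Lta4h (chr10:93453411-93484875, plus strand) stood at 343.0, 346.3, 329.3 and 345.3 CPM in WT libraries 1 to 4 and 333.6, 361.7, 321.6 and 324.9 in Alox5 KO. Its fold of Alox5 KO over WT was 0.993, with a 95% interval of 0.886 to 1.11. Cysltr1 (chrX:106574346-106603679, minus strand) stood at 544.2, 524.4, 456.9 and 519.7 CPM in WT and 575.7, 560.7, 501.7 and 624.4 in Alox5 KO. The groups overlapped, and its fold was 1.12 (0.986 to 1.26). Cysltr2 (chr14:73025603-73049114, minus strand) had means of 219.6 ± 26.0 and 242.1 ± 26.1 CPM and a fold of 1.11 (0.955 to 1.29). Ltb4r1 (chr14:55765962-55768494, plus strand) had 157.6 ± 25.4 and 145.8 ± 19.3 CPM and a fold of 0.935 (0.762 to 1.15). Ltb4r2 (chr14:55761428-55765138, plus strand) had 1.70 ± 2.04 and 0.784 ± 0.631 CPM and a fold of 0.520, with an interval of 0.0858 to 3.15 that holds both a large fall and a large rise. Their adjusted p-values lay between 0.7224 and 0.9796 by edgeR.

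**Figure D4:**
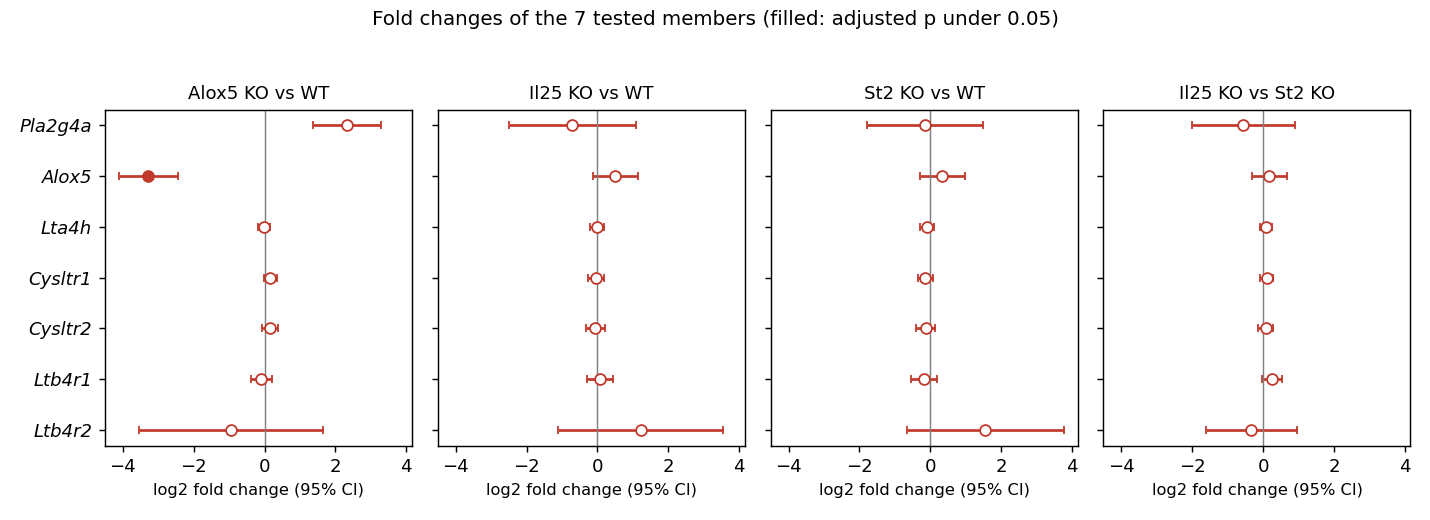
Log2 fold change of the 7 tested members in 4 comparisons, with 95% intervals; filled points passed an adjusted p of 0.05. Alox5 in Alox5 KO against WT is the 1 filled point, and Lta4h, Cysltr1, Cysltr2 and Ltb4r1 have point values within 0.3 of 0 in every comparison.

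No member was called in the libraries labelled Il25 KO or St2 KO. The counts of the targeted genes did not check either label. Il25 had no count in any of the 16 libraries. Il1rl1 stood at 245.7, 210.5, 168.6 and 237.4 CPM in WT libraries 1 to 4 and at 197.3, 160.4, 208.2 and 125.6 in the libraries labelled St2 KO. The groups overlapped, with a log2 difference of -0.25 (95% interval -0.82 to 0.33, adjusted p = 0.8899 by edgeR). The position of the St2 alteration was not given, so whether these counts lie outside it was not tested. Arg1, the site of the Yarg reporter, was 335.7 ± 35.0 CPM in WT, 384.7 ± 46.9 in Alox5 KO, 21.01 ± 3.81 in Il25 KO and 22.3 ± 7.61 in St2 KO, with no overlap between the groups with and without the reporter.

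Against WT, 49 genes were called in Il25 KO (0.417% of those tested) and 35 in St2 KO (0.298%), and in Il25 KO against St2 KO 146 were called (1.24%). None of the 7 tested members was among them by edgeR or by DESeq2, and none had an unadjusted p under 0.05, where 9.3%, 7.49% and 11.3% of tested genes had one. Comparisons of both groups with WT share the WT libraries. TS was the only letter pair that held WT together with Il25 KO and St2 KO, with 2 libraries of each. Because the fit included letter pair, it tied Il25 KO and St2 KO to WT only through TS. All fitted folds, intervals and calls of these knockouts against WT thus rest on fewer libraries than the group means. The lack of a called member is limited in the same way. Alox5 was 121.5 ± 51.2 CPM in Il25 KO and 109.1 ± 38.8 in St2 KO against 96.2 ± 32.8 in WT. Its fitted folds were 1.42 (0.918 to 2.20) and 1.26 (0.812 to 1.97), which are not the ratios of those means. In TS alone its means were 161.2 CPM in Il25 KO, 124.9 in St2 KO and 110.6 in WT. Lta4h had folds of 0.992 (0.864 to 1.14) and 0.939 (0.819 to 1.08). Over all 16 libraries its level varied with a coefficient of variation of 4.56%.

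Cysltr1 was 484.6 ± 17.9 CPM in Il25 KO and 466.5 ± 38.2 in St2 KO, folds over WT of 0.972 (0.835 to 1.132) and 0.907 (0.780 to 1.06). Cysltr2 was 214.0 ± 22.0 and 209.8 ± 19.5 CPM, and Ltb4r1 160.4 ± 16.05 and 138.9 ± 19.7. Ltb4r2 was 0, 2.20, 7.33 and 6.83 CPM in Il25 KO libraries 1 to 4 and 8.77, 4.04, 5.11 and 2.75 in St2 KO. Its folds over WT, 2.33 and 2.93, had intervals of 0.464 to 11.7 and 0.633 to 13.6, which hold both directions. Ltb4r1 and Ltb4r2 lie 0.83 Mb from Il25 on chromosome 14, so the Il25 KO allele and these genes are linked. Cysltr2 lies 18.09 Mb from it.

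The wider pathway was followed in 6 lists of 66 genes, of which 65 were in the table and 36 passed the filter. Not 1 of the 36 was called in Alox5 KO or St2 KO against WT by edgeR or DESeq2, and 3 and 1 of them had an unadjusted p under 0.05, as did 7.17% and 7.49% of all tested genes. In both Il25 KO against WT and Il25 KO against St2 KO, 1 of the 36 was called by each tool, where edgeR called 0.417% and 1.24% of all tested genes. With an unadjusted p under 0.05 there were 7 and 6 of the 36, where all tested genes had 9.3% and 11.3%. The called gene was Itpr3, an inositol trisphosphate receptor that releases calcium downstream of such receptors. Itpr3 was 124.4 ± 23.0 CPM in WT, 66.4 ± 12.6 in Il25 KO and 116.7 ± 35.4 in St2 KO. It fell by 1.08 ± 0.16 on the log2 scale in Il25 KO against WT (adjusted p = 0.001476) and by 0.76 ± 0.12 against St2 KO (adjusted p = 0.002057), by edgeR. Its 104.2 ± 9.67 CPM in Alox5 KO gave an adjusted p of 0.6907 against WT.

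In Alox5 KO against WT, 4 of the 7 tested genes of phospholipase A2 and arachidonate handling had values above 0 and 3 below, with a median of 0.09 on the log2 scale, against 0.01 over all tested genes, of which 52.1% lay above 0. The 5 tested genes of the cysteinyl branch had a median of 0.17, with 4 above 0, and the 4 tested of leukotriene B4 inactivation a median of -0.19, with all 4 below. The same lists, in that order, had medians of 0.41, 0.30 and -0.09 in St2 KO against WT. Values above 0 were 6 of 7, 4 of 5 and 1 of 4, and 51.8% over all tested genes. In Il25 KO against WT the medians were 0.22, -0.19 and -0.12. Values above 0 there were 5 of 7, 1 of 5 and 1 of 4, and 50.3% over all tested genes. These comparisons share the WT libraries. Mgst2 was 59.2 ± 12.1 CPM in WT and 74.3 ± 14.2 in Alox5 KO (log2 difference 0.33, adjusted p = 0.7467). Abcc4 gave -1.70 ± 0.53 with an adjusted p of 0.4504. The 18 genes of G protein and calcium signalling had a median of -0.01.

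The genes most like a member in their levels were taken by Pearson's r of log2 CPM over 9986 expressed genes, with no test. Over the 16 libraries, Cysltr1 was most like Cox7a2l (r = 0.961), 2410006H16Rik (0.944) and mt-Rnr2 (0.928). Over the 12 libraries other than Alox5 KO, Alox5 was most like Gm15440 (r = 0.942), Rrs1 (0.887) and Adk (0.854). The libraries in each correlation share depth, letter pair and sort.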

How the data were processed

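RNA from sorted duodenal ILC2 was measured in 16 libraries. The authors deposited 1 table of raw counts per gene. The submitters' processing notes name the build GRCm38 and the tools FastQC 0.11.3, Picard 1.134, HTSeq 0.4.1 and STAR 2.4.2a, but settings, annotation and duplicate removal are not given in the sources used here. After 6 rows with repeated identifiers were dropped, 53465 genes were kept. CPM used column totals, and exon lengths came from GENCODE vM21. Counts were fitted with edgeR 4.0.16 (R 4.3.3; TMM, default expression filter, robust quasi-likelihood, genotype plus letter pair, all 16 libraries), with Benjamini-Hochberg adjustment over 11742 genes and a threshold of 0.05. Alternatives used DESeq2 1.42.0, other scalings and filters, letter pairs alone and each library left out. The fitting was tested on simulated data. Alox5ap and Ltc4s failed the filter and had exact permutation tests. The members, lists and named-gene rule (all members, called list genes, the top 3 of each list by level, the 3 closest by likeness) were chosen with earlier results of these data known.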

Additional observations from a re-analysis of the deposited data

Results flagged for a closer look

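Among 31 sets of 4 libraries, each 1 member in 1 genotype, the highest or lowest library lay far from the other 3 in 4 of them, by a test that flags about 1 set in 20 by chance. Alox5 was 145.2 CPM in WT 1, against 76.0 to 83.5 in the other WT libraries, and 4.78 CPM in Alox5 KO 1, against 11.1 to 11.98. Cysltr1 was 523.4 CPM in St2 KO 1, against 443.8 to 453.7 in the other St2 KO libraries. Ltc4s was 0.337 CPM in St2 KO 1, which is 1 count, against 0 in the other St2 KO libraries. Alox5 KO 1 and St2 KO 1 are also the libraries with the lowest plasma and B cell sums.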

How the results depend on the processing

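With DESeq2 the calls were 52 genes (Alox5 KO against WT), 82 (Il25 KO against WT), 67 (St2 KO against WT), 246 (Il25 KO against St2 KO) and 299 (any genotype), and 2 members were called in Alox5 KO against WT, Alox5 and Pla2g4a. edgeR's legacy mode called 5 genes in Alox5 KO and 1 member over the genotypes (Pla2g4a adjusted p = 0.08503). Without the letter pair, Alox5 KO gave 2 members, Il25 KO 95 genes and St2 KO 58. With the replicate block, the calls were 20, 98 and 66 genes against WT, 242 over the genotypes, and 2 members in Alox5 KO; 3 of 24 same-numbered pairs correlated above 0.1 (-0.075 to 0.19), so the numbers do not pair the samples. With only the groups compared, Alox5 KO called 22 genes, Il25 KO 9 and Il25 KO against St2 KO 96. TS libraries alone called 3 genes and 0 members in Alox5 KO, 9 in Il25 KO, 33 in Il25 KO against St2 KO and 42 genes with 1 member over the genotypes, and TY alone 30 in Il25 KO against St2 KO. With Alox5 KO 1, Alox5 KO 2 and St2 KO 1 left out (few plasma cell transcripts), an alternative chosen after seeing the data, calls were 3 genes and 0 members, 26, 21, 90 and 83 genes with 1 member. That alternative left no TS library of Alox5 KO. With single libraries left out, calls ranged over 6 to 20 genes (Alox5 KO), 31 to 53 (Il25 KO), 19 to 45 (St2 KO), 80 to 168 (Il25 KO against St2 KO) and 95 to 164 (any genotype), with 1 to 2 members in the first and last; Pla2g4a lost its call over the genotypes without Alox5 KO 1 (adjusted p = 0.1225).

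None of the values that changed sign was called. For Pla2g4a, St2 KO against WT (main value -0.15) became 0.42 with DESeq2, 0.37 in legacy mode, 0.016 with the block, 1.34 with only the groups compared and in TS alone, and 1.23 without the 3 libraries; Il25 KO against WT (-0.71) became 0.73 with only the groups or TS and 0.72 without the 3. Lta4h in Il25 KO became 0.018 without the letter pair and 0.016 with the block, and 0 without the 3 libraries; Cysltr2 there became 0.002 with the block. In Alox5 KO, TS alone gave 0.017 for Lta4h, 0.058 for Ltb4r1 and 0.28 for Ltb4r2. In Il25 KO against St2 KO, TY alone gave -0.16 for Alox5, -0.039 for Cysltr2 and 0.89 for Ltb4r2, and leaving out the 3 libraries gave -0.058 for Alox5 and 0.23 for Ltb4r2. With longest-transcript lengths, Lta4h was 105.7 and Cysltr2 124.8 CPM per kb. The cause of these changes was not tested. With single libraries left out, log2 values in Alox5 KO against WT ranged over -0.056 to 0.015 (Lta4h), -0.19 to 0.036 (Ltb4r1) and -1.60 to 0.26 (Ltb4r2). In Il25 KO against WT they ranged over -0.081 to 0.007 (Cysltr1), -0.16 to 0.005 (Cysltr2), -0.093 to 0.09 (Lta4h) and -0.074 to 0.14 (Ltb4r1), in St2 KO against WT over -0.59 to 0.43 (Pla2g4a), and in Il25 KO against St2 KO over -0.046 to 0.36 (Alox5), -0.008 to 0.15 (Cysltr2) and -0.70 to 0.24 (Ltb4r2). The exact permutation p of Ltc4s in Il25 KO against WT ranged over 0.0286 to 0.1429. The lowest came without Il25 KO replicate 2, the Il25 KO library with no count. It is the smallest p the test can give there and follows from dropping that library. Low counts limit Pla2g4a in WT, Il25 KO and St2 KO, and Ltb4r2 in all groups.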
